A study of Drosophila melanogaster with 6 samples.

Results

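The 3 microarrays described here measured whole Drosophila melanogaster ovaries in which the follicle cells (FCs) had been made to express Unpaired (upd) and lambda-top, each against 1 shared pool of wild-type ovary RNA. They are the 3 arrays that the series titles as ectopic JAK/STAT and EGFR ovaries, out of 6 arrays in all, and the other 3 measured control ovaries against the same pool. The ectopic expression females were heterozygous for GAL80TS and carried GR1-GAL4 over a chromosome with UAS-Unpaired and UAS-lambdatorpedo. The control females had GAL80TS and GR1-GAL4 as well, but over the balancer TM6B in place of the transgenes. Both came from crosses at 18°, were 5 to 8 days old, were fed yeast and were shifted to 29° for 16 h before dissection. The reference pool came from OreR females, raised at room temperature and kept with yeast at 25°. GR1-GAL4 is an FC driver that GAL80TS holds back in the cool, so germline and sheath RNA in these samples came from cells without the driver, and each preparation pooled the ovaries of several females.

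In the egg chamber, Unpaired is the ligand of the JAK/STAT pathway and is secreted by the polar FCs at both ends. Gurken from the oocyte activates the EGF receptor in the posterior cells, and together the pathways specify the posterior follicle cells (PFCs), which later signal back to the oocyte. Lambda-top is a form of the receptor that is active without ligand, so the combination supplies both inputs throughout the follicular epithelium. A whole ovary mixes FCs of all stages with nurse cells, oocytes and muscle sheath, and a change in the number of cells of a type cannot be told apart from a change of RNA in each cell.

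Each array carried 43602 spots for 32162 probes that belong to 25857 transcript, clone or consensus identifiers. A value here is the log2 ratio of Cy5, the ovary sample, over Cy3, the reference, so that 1 is a 2-fold higher signal and -1 a 2-fold lower signal than in wild-type ovaries. On the ectopic expression arrays 23606 to 25205 spots were well above background in Cy5, and 0 spots were saturated. The labels give the 3 arrays as biological replicates, and each lay on a different slide. Their log2 ratios correlated across probes at 0.836 to 0.935, and those with the control arrays at 0.449 to 0.594. The dyes were never swapped, so against the reference the transgenes, the driver strain, the temperature and any bias between dyes cannot be told apart. The control arrays share the driver, GAL80TS, the temperature and the dyes, but not the transgenes or, in the other direction, the balancer. Their values are given beside the results.

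Gene names limited the description. The reference table paired 494 probes (1.54%) with exactly 1 gene, 408 genes in all, of which 215 were protein-coding. None of the 45 markers fixed for germline, FCs, eggshell-forming FCs, muscle sheath, hemocytes, fat body and testis had a named probe, so the labelled tissue could not be checked through them. The remaining probes were counted by the identifier that the array design gives.

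The first question was how far these ovaries differed from wild type. Of 32162 probes, 605 (1.88%) were higher and 483 (1.5%) lower at an adjusted P-value of 0.05 in the limma fit and at least 2-fold. With the P-value alone, 3965 (12.3%) were higher and 3990 (12.4%) lower. The called probes came from 535 identifiers that were higher and 441 that were lower. Counted once by the probe with the smallest P-value, 523 identifiers (2.02%) were higher and 435 (1.68%) lower, and by the P-value alone 13% and 13.3% were. Most of the array stayed close to the reference, with 96.6% of probes within 2-fold and the middle 8 in 10 between -0.32 and 0.31 on the log2 scale. The spread between the 3 arrays had a median SD of 0.104 over all probes, the dim ones included. Among the called probes it varied, with SDs of 0.02 for A_09_P180530, 0.55 for jim and 1.3 for A_09_P010076.

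The higher probes had a median log2 ratio of 1.43 (2.70-fold), and the lower probes one of -1.41 (2.65-fold). A 4-fold difference was reached by 130 probes in each direction, an 8-fold difference by 48 higher and 60 lower probes, and a 16-fold difference by 12 and 17. For the typical called probe the control ovaries lay between the reference and the ectopic expression ovaries. The control median was 0.31 for the higher probes, with quartiles of 0.05 and 0.96. For the lower probes it was -0.53, with quartiles of -1.06 and -0.18. The probes were chosen by their ectopic ratios, so control medians nearer the reference are in part fixed by that choice. Ectopic minus control, tested in 1 limma fit of 6 arrays with the same thresholds, gave 419 higher probes (1.3%) and 268 lower ones (0.833%). By the P-value alone these were 6.4% and 5.47% of all probes.

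**Figure D1:**
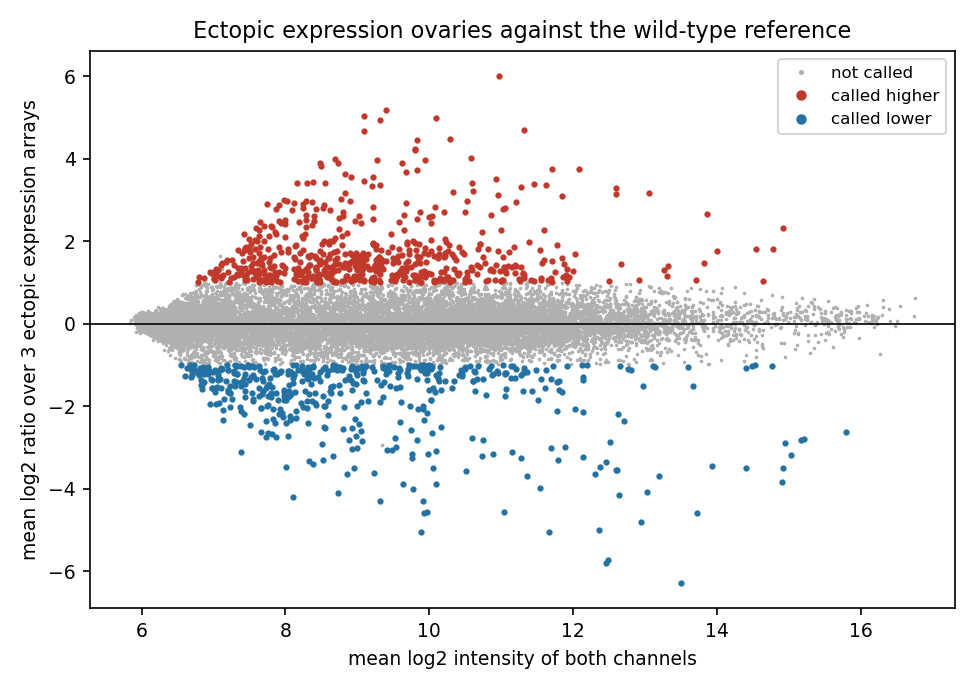
Mean log2 ratio of the 3 ectopic expression arrays (vertical) against the mean log2 intensity of both channels (horizontal), 1 point per probe, with the 605 higher probes in red and the 483 lower probes in blue. All called probes lie in the upper 2 quartiles of intensity, and 4 grey points lie past 2-fold without passing the P-value.

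Calls were spread unevenly over signal strength. All of them fell in the upper 2 quartiles of probes by intensity, with 325 higher and 281 lower probes in the third quartile and 280 and 202 in the brightest. The lower 2 quartiles held 0 calls. The quartiles use the mean of both channels, which a large difference itself raises, so this count is in part fixed by how they were made. For 33 of the higher probes the reference channel was not well above background on any ectopic expression array, so only lower bounds are given for their differences. Those bounds ran from 2.05-fold to 14.4-fold, with a median of 2.98-fold. For 18 of the lower probes the ovary channel was not well above background, with bounds from 1.83-fold to 14.9-fold. Each bound sets the mean of the bright channel against the dimmest signal that was still well above background on each array, or the dim probe's own if higher.

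The 3 arrays did not move by equal amounts. The median log2 ratio of the higher probes was 1.48 on replicate 1, 1.63 on replicate 2 and 1.21 on replicate 3, while the control arrays had 0.39, 0.31 and 0.31. The lower probes had medians of -1.51, -1.54 and -1.30, against -0.51, -0.55 and -0.54 on the control arrays. Replicate 3 was the closest to the reference in 495 of the 605 higher probes and in 337 of the 483 lower ones. Choosing probes without the array in question again put replicate 3 closest to the reference. Replicates 1 and 2 alone called 730 higher probes with a median of 1.44, and replicate 3 had 1.06 for them, a ratio of 0.741. For the 591 lower probes called in this way the ratio was 0.830. The same ratios for replicate 1 were 0.999 and 1.05, and for replicate 2 they were 1.19 and 1.05. Without replicate 1 the counts fell to 346 higher and 292 lower probes.

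**Figure D2:**
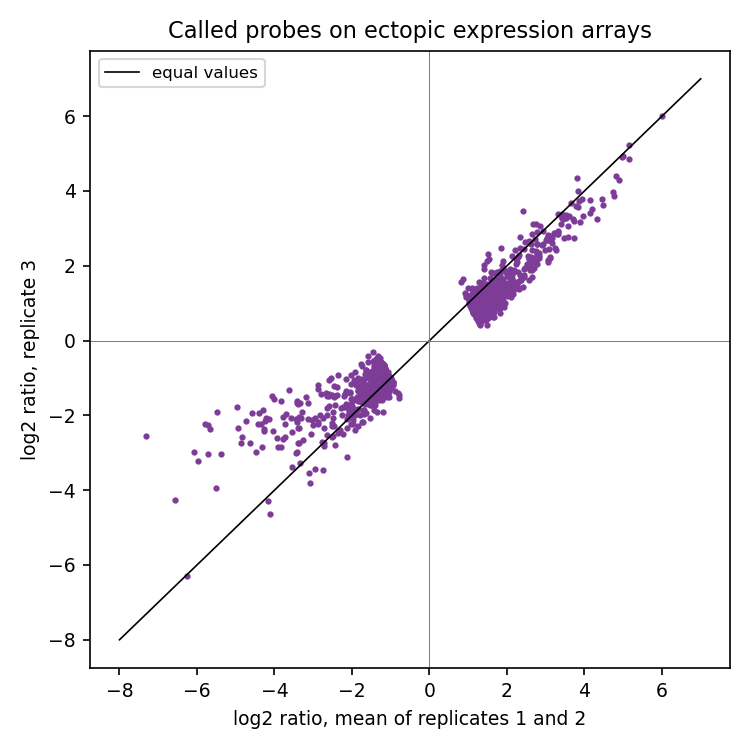
Log2 ratio of each called probe on ectopic expression replicate 3 (vertical) against the mean of replicates 1 and 2 (horizontal), with the line of equal values. For 495 of the 605 higher and 337 of the 483 lower probes replicate 3 was the array closest to 0, and among strongly lower probes many points sit well above the line.

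Genes with names could be followed one by one. By their probe with the smallest P-value, 9 of the 408 were called higher and 9 lower. A further 45 were higher and 28 lower by the P-value alone, and 317 did not pass it. Counted as probes, 9 of the 494 were higher (1.82%) and 11 lower (2.23%), close to the 1.88% and 1.5% of all probes. Of the 215 protein-coding genes, 7 were called higher and 3 lower, and of the 193 noncoding RNAs and pseudogenes, 2 were called higher and 6 lower. Whether the kinds of transcript differ in this was not tested.

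Among the 9 higher genes, 5 lay near or below the reference in the control ovaries, a grouping made after the values were seen. The gene jim, which encodes a zinc finger transcription factor, had log2 ratios of 2.00, 2.20 and 1.17 on the ectopic expression arrays. The control arrays had 0.31, 0.21 and 0.12, so the groups did not overlap. The mean was 1.79 (SE 0.19, 3.46-fold, limma adjusted P-value 0.0011), and ectopic minus control was 1.58 (adjusted P-value 0.0033). With 2 arrays left, jim missed the threshold without replicate 1 (1.69, adjusted P-value 0.0833) and without replicate 2 (1.59, adjusted P-value 0.0533). Its direction was the same in every alternative run.

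Pka-R2, a regulatory subunit of cAMP-dependent protein kinase, had 1.44, 1.62 and 1.27, against -0.07, -0.18 and 0.09 in the control ovaries. Its mean was 1.44 (SE 0.08, 2.72-fold, adjusted P-value 1.1e-04). All ectopic expression values lay above all control values, and ectopic minus control was 1.5 (adjusted P-value 1.3e-04). Madm, a kinase-like adaptor protein, had 1.30, 1.40 and 1.09, for a mean of 1.26 (SE 0.08, 2.40-fold, adjusted P-value 1.5e-04). The control arrays were below the reference, at -0.62, -0.84 and -0.61, which made ectopic minus control 1.95 (3.87-fold, adjusted P-value 3.6e-05), the largest difference from the controls among the named genes that were called higher.

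Nepl4 belongs to the neprilysin-like family of peptidases. Its log2 ratios were 1.18, 1.33 and 0.72, with control values of 0.04, -0.08 and -0.38. The mean was 1.08 (SE 0.12, 2.11-fold, adjusted P-value 0.0013), ectopic minus control was 1.22 (adjusted P-value 0.0024), and replicate 3 was the lowest of the 3 arrays. Without replicate 1 its adjusted P-value was 0.0868 at 1.02, and without replicate 2 it was 0.0526 at 0.95. The long noncoding RNA lncRNA:CR44042 had 1.5, 1.41 and 0.97, with control values of 0.26, 0.24 and 0.47. Its mean was 1.29 (SE 0.11, 2.45-fold, adjusted P-value 4.7e-04), and without replicate 1 it was 1.19 (adjusted P-value 0.0535).

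The other 4 higher genes were also at least 2-fold above the reference in the control ovaries, which carry no UAS transgene. CG14715 had the highest ratio of any named gene, with 3.36, 3.49 and 3.28 for a mean of 3.38 (SE 0.07, 10.4-fold, adjusted P-value 4.1e-06). The control arrays had 2.36, 2.25 and 2.58, and the ectopic expression arrays were higher still by 0.98 (adjusted P-value 7.0e-04), just under the 2-fold threshold. CG8204 had 2.33, 2.83 and 2.20, against 1.75, 1.94 and 2.15, and ectopic minus control was 0.51 (adjusted P-value 0.0987). The pseudogene CR14033 had 2.85, 2.87 and 3.07, against control values of 2.50, 2.65 and 3.26 that spanned them. A second identifier of CR14033 gave 0.33 and 0.63 with its 2 probes, with control means of 0.12 and -0.12. Ectopic minus control was 0.21 (adjusted P-value 0.280) and 0.75 (adjusted P-value 0.0011) for them, so the probes of CR14033 differ in this. The pseudogene overlaps tkv, the gene of a BMP receptor.

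CHKov1, which encodes a choline kinase-like protein, went the other way between the groups. It had 1.39, 1.48 and 1.5 in ectopic expression ovaries (mean 1.46, SE 0.06, 2.75-fold, adjusted P-value 4.1e-05) but 2.64, 2.43 and 2.56 in control ovaries. Ectopic minus control was therefore -1.09 (adjusted P-value 1.5e-04). It was above wild type in both groups, and lower with the transgenes than with the balancer. Between the groups, the transgenes and the balancer cannot be told apart.

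**Figure D3:**
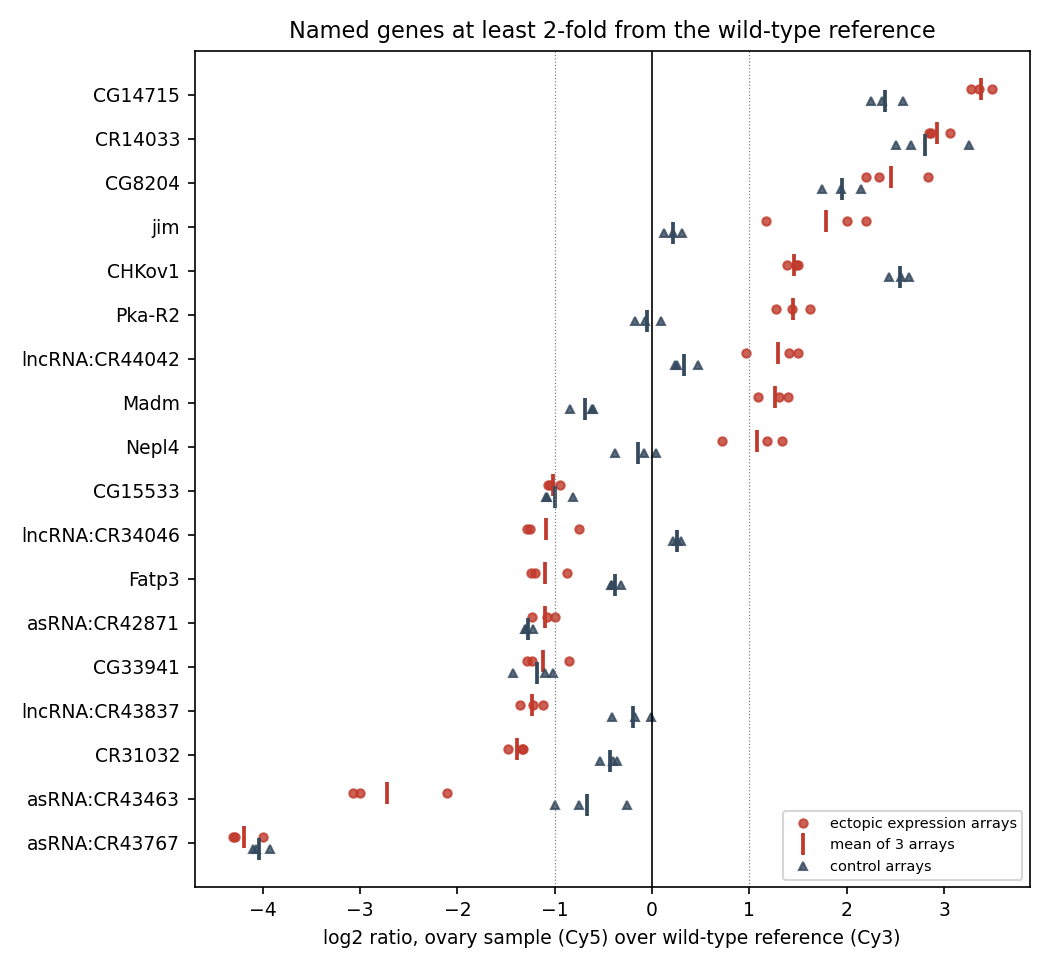
Log2 ratios to the wild-type reference of the 18 named genes called at least 2-fold higher or lower, with 3 ectopic expression arrays (red circles), 3 control arrays (dark triangles) and the mean of each group (bars). For jim, Pka-R2, Madm, Nepl4 and lncRNA:CR44042 the control arrays sit near or below 0, while for CR14033, CG33941 and asRNA:CR42871 the groups overlap, and for asRNA:CR43767 and CG15533 the red values come from an ovary channel near background.

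Of the 9 lower genes, 6 were noncoding RNAs or pseudogenes. The antisense RNA asRNA:CR43767, which overlaps Tango14, had -4.31, -4.0 and -4.28. Its ovary channel was not well above background on any ectopic expression array, so it was at least 14.9-fold lower than in the reference (adjusted P-value 3.6e-06). The control arrays had -3.93, -4.10 and -4.07, with the ovary channel above background on 2 of the 3, and at these signals a difference between the groups was not detectable.

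A second antisense RNA, asRNA:CR43463, overlaps Pgant35A, which encodes an O-glycosylating enzyme. It had -3.07, -3.0 and -2.11 for a mean of -2.73 (SE 0.18, 6.62-fold lower, adjusted P-value 2.2e-04). Control values were -0.75, -1.0 and -0.26, so the groups were separate, and ectopic minus control was -2.06 (4.16-fold, adjusted P-value 0.0019). Which strand these probes read was not checked here, so a signal of the overlapping gene cannot be told apart from the antisense RNA. With the scanner software's own log ratio the value was -4.19 (adjusted P-value 0.0611).

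The long noncoding RNA lncRNA:CR34046 had -1.28, -1.25 and -0.75 and stood above the reference in the control ovaries, at 0.30, 0.26 and 0.22. Its mean was -1.09 (SE 0.11, adjusted P-value 0.0010), ectopic minus control was -1.35 (adjusted P-value 5.8e-04), and its other probe had -0.71. Its ovary channel was well above background on 1 of the 3 ectopic expression arrays. It missed the threshold without replicate 1 (-1.0, adjusted P-value 0.0732) and without replicate 2 (-1.01, adjusted P-value 0.0566). The noncoding lncRNA:CR43837 had -1.12, -1.36 and -1.22 against -0.41, -0.01 and -0.18, a difference of -1.03 (adjusted P-value 8.9e-04). CR31032 had -1.33, -1.34 and -1.48 with one probe and a mean of -1.51 with its other probe. Ectopic minus control was -0.95 for the first of them (adjusted P-value 2.7e-04) and -1.07 for the other (2.10-fold, adjusted P-value 0.0022). The antisense RNA asRNA:CR42871 did not separate the groups, with means of -1.10 and -1.28.

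The 3 protein-coding genes called lower were Fatp3, CG33941 and CG15533. Fatp3, a fatty acid transport protein, had -1.24, -1.20 and -0.87, against -0.42, -0.41 and -0.32 in control ovaries. Its mean was -1.10 (SE 0.09, 2.15-fold lower, adjusted P-value 3.8e-04), its other probe had -1.15, and ectopic minus control was -0.72 (adjusted P-value 0.0036). CG33941 had -1.12 and -1.18 as its group means, and CG15533 was at least 1.92-fold lower than the reference. Its ovary channel was above background on 0 ectopic expression arrays and 1 control array, so the groups could not be compared. Without replicate 1, Fatp3 was -1.03 (adjusted P-value 0.0509) and CG33941 was -1.07 (adjusted P-value 0.0607).

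The signalling and tissue lists could be read only in part. Of 26 gene lists, 12 had no named probe and no list had more than 16.7% of its members named, so a list's count covers only the members given here. No named member of the JAK/STAT list, the eggshell list or the yolk list was present. Of 31 EGFR pathway genes only kek1 had a named probe. It encodes a transmembrane inhibitor of the receptor that is itself induced by EGFR signalling. Its log2 ratios were 0.68, 0.78 and 0.31, while the control arrays were all below the reference at -0.20, -0.57 and -0.48. The mean was 0.59 (SE 0.10, 1.5-fold, adjusted P-value 0.0063), under the 2-fold threshold, and ectopic minus control was 1.01 (2.01-fold, adjusted P-value 0.0027). Without replicate 1 its adjusted P-value against the reference was 0.158, and without replicate 2 it was 0.108.

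Of 14 PFC genes, jim and kek1 were named, and both were higher by the P-value, as were 12.3% of all probes. Neither passed without replicate 1 or without replicate 2, so the count is not a result about PFC genes. The list is the one the study compiled from earlier work on these cells, and 12 of its 14 genes had no named probe here. In the basement membrane and matrix list 1 of 36 members was named, LanA, the laminin alpha chain of basement membranes. It had 0.92, 0.95 and 0.27 for a mean of 0.71 (SE 0.14, 1.64-fold, adjusted P-value 0.0112), with control values of 0.23, 0.06 and -0.27. Replicate 3 lay near the highest control array, and ectopic minus control was 0.71 (adjusted P-value 0.0513). Without replicates 1 and 2 in turn, the adjusted P-values against the reference were 0.208 and 0.173.

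Of 12 further genes taken from the study, alpha-Spec and Sema1a were named. The paper gives alpha-Spec as found on the arrays, but used Sema1a only in mutant clones, to look for redundancy with Sema1b. Sema1a, a transmembrane semaphorin, was not well above background in either channel with its 2 probes (0.08 and 0.06). Alpha-Spec, the alpha spectrin of the membrane cytoskeleton, was higher at 0.53, 0.74 and 0.60, with control values of 0.03, 0.13 and 0.15. Its mean was 0.62 (SE 0.07, 1.54-fold, alpha-Spec adjusted P-value 0.0011). Ectopic minus control was 0.52 (1.43-fold, adjusted P-value 0.0051), so this probe did not reach the 2-fold cutoff of the paper. From the cytoskeleton and adhesion list sdk, an immunoglobulin family adhesion protein, had a mean of 0.39 (adjusted P-value 0.0070) and a control mean of -0.01. For eya, a nuclear regulator of FC fate, the values were -0.07, -0.12 and -0.20 (adjusted P-value 0.186) with a control mean of -0.38. No difference of eya from the reference was detected with this probe, at a dim mean log2 intensity of 6.72. Its other probe had a mean of 0.03 (adjusted P-value 0.776) and a control mean of -0.34. Ectopic minus control was 0.25 (adjusted P-value 0.148) for the first probe and 0.37 (adjusted P-value 0.0280) for the other. The ovary channel of the other probe was well above background on 0 control arrays, so that difference is uncertain. Without replicate 1 the adjusted P-value was 0.0566 for alpha-Spec and 0.136 for sdk.

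The heat shock list bears on the shift to 29°, which the reference ovaries did not have. Hsromega, a noncoding RNA that is induced by heat, had 0.85, 0.87 and 0.99 on the ectopic expression arrays. Its mean was 0.90 (SE 0.06, 1.87-fold, adjusted P-value 2.2e-04). The control ovaries, incubated at the same temperature, had 0.18, -0.04 and 0.00 with this probe, and ectopic minus control was 0.86 (adjusted P-value 5.8e-04). The other probes of Hsromega did not all give this picture. Another had 0.87 against a control mean of 0.05, and a further one 0.95 against 0.35. The probe at 0.34 had a control mean of 0.22, with ectopic minus control of 0.12 (adjusted P-value 0.586). The last was not well above background in either channel on any ectopic expression array. Hsc70-1, a heat shock cognate chaperone, did not pass the test, with 0.02, -0.15 and -0.06 (adjusted P-value 0.550) and a control mean of 0.03. Its signal was dim, with a mean log2 intensity of 7.13.

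Germline RNA was represented by exu, a maternal gene needed to localise bicoid mRNA. It was lower, at -0.81, -0.58 and -0.40 for a mean of -0.60 (SE 0.09, 1.51-fold lower, adjusted P-value 0.0039). The control arrays lay at the reference, with 0.09, -0.10 and 0.09, and ectopic minus control was -0.62 (adjusted P-value 0.0095). The germline-expressed genes tor and fs(1)K10, named after their values were seen, went opposite ways. The receptor tyrosine kinase tor, which patterns the ends of the embryo, was lower with -0.80, -0.95 and -0.62 and a control mean of -0.10. The gene fs(1)K10, which acts in localising gurken mRNA, was higher with 0.61, 0.69 and 0.82 and a control mean of 0.21. Without replicate 1 the adjusted P-value was 0.0900 for exu and 0.0696 for tor, and without replicate 2 it was 0.0885 for exu.

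**Figure D4:**
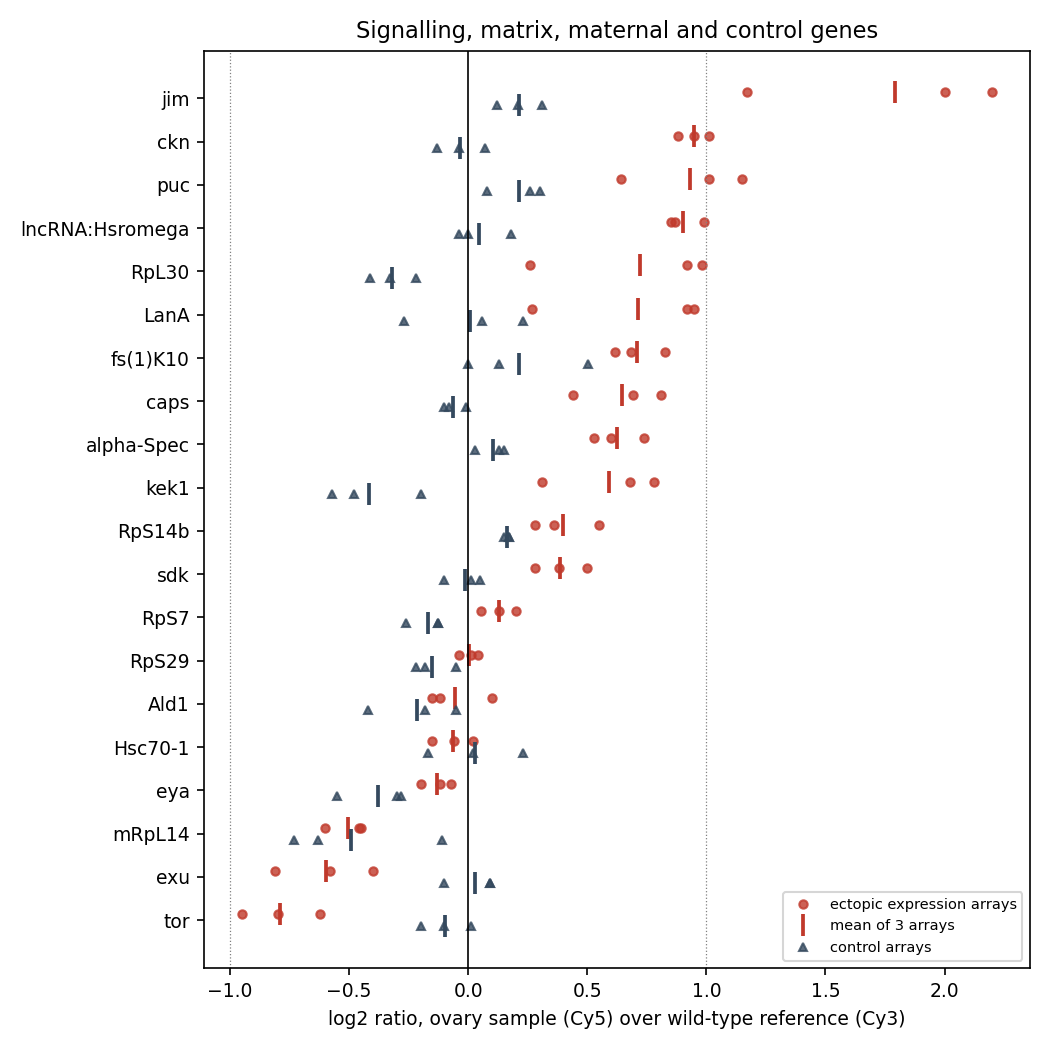
Log2 ratios to the wild-type reference of named genes from the signalling, matrix, heat shock, germline and housekeeping groups, with 3 ectopic expression arrays (red circles), 3 control arrays (dark triangles) and group means (bars). The groups overlap for Hsc70-1, Ald1 and mRpL14, and for RpS29, LanA and eya any gap is small. The genes shown were picked, and how often the groups separate over all probes was not counted. Separation in this figure is therefore not a result about these genes as a set. RpS29, Hsc70-1 and Ald1, each at a dim signal, lie within 0.2 of the reference on every ectopic expression array.

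Housekeeping genes differed among themselves. Of 4 cytoplasmic ribosomal protein genes with a name, RpL30 was higher with 0.92, 0.98 and 0.26 (mean 0.72, adjusted P-value 0.0123), and RpS14b was higher by 0.40 (adjusted P-value 0.0087) with a control mean of 0.16. RpL30 was below the reference in the control ovaries at -0.22, -0.33 and -0.41, and ectopic minus control was 1.04 (adjusted P-value 0.0067). RpS7 and RpS29 did not pass the test against the reference, with means of 0.13 and 0.00 and control means of -0.17 and -0.15. Ectopic minus control was 0.30 for RpS7 (adjusted P-value 0.0443) and 0.15 for RpS29 (adjusted P-value 0.297). Both were dim, with mean log2 intensities of 7.13 and 6.85, where RpS14b had 12.5. Without replicate 1 neither RpL30 nor RpS14b passed, with adjusted P-values of 0.218 and 0.142. Of 3 mitochondrial ribosomal protein genes, mRpL14 was lower at -0.50, with control values of -0.73, -0.63 and -0.11. The other two, mRpS16 and mRpL52, did not pass at -0.20 and 0.15, with control means of -0.28 and 0.18. Of the 6 named histone genes, only His2A:CG33808 passed. Its reference channel was not well above background, so it was at least 0.39 higher on the log2 scale, and near-identical histone copies can share this signal. The other 5 did not pass, and 1 of them was not well above background in either channel. Ald1, an aldolase of glycolysis, had a mean of -0.06 and a control mean of -0.22, at a dim mean log2 intensity of 6.90. Prosalpha3T, a testis form of a proteasome subunit, and Mef2, a muscle transcription factor, were not well above background in either channel.

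Some genes below the 2-fold threshold were picked out after their values were seen. The phosphatase puc, which is induced by JNK signalling and inhibits it, had 1.01, 1.15 and 0.64 against a control mean of 0.21. The caskin homologue ckn had 0.95, 1.01 and 0.88 against -0.03, with ectopic minus control of 0.98 (adjusted P-value 2.4e-04). Caps, a leucine-rich repeat cell surface protein, had a mean of 0.65 against -0.06. The snoRNA host genes Uhg2 and Uhg3 differed in sign, with means of 0.58 and -0.37 and control means of -0.28 and -0.44. For cl the values of 0.93, 1.02 and 0.97 were matched by a control mean of 1.05, and for CtsB, a cathepsin, -0.63 was matched by -0.73. Dad, the inhibitory Smad of BMP signalling, was at 0.40 in ectopic expression ovaries and 0.44 in control ovaries.

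Several of the largest differences belonged to probes without a gene name. Probe A_09_P011396 had 5.91, 6.11 and 6.00 in ectopic expression ovaries, for a mean of 6.00 (SE 0.06, 64.2-fold, adjusted P-value 5.1e-07). The control arrays had -0.08, -0.14 and 0.25, so this signal was at the reference level in the control ovaries. A second probe of its identifier had 0.32, 0.72 and 0.34. Its reference channel was not well above background on any ectopic expression array, so the size of its difference is uncertain. Probe A_09_P024961 reached 5.18 (36.1-fold) in ectopic expression ovaries and 5.04 in control ovaries, with a difference of 0.13 (adjusted P-value 0.373).

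Of the lower probes, A_09_P180530 had -6.27, -6.26 and -6.30 for a mean of -6.28 (77.5-fold lower), and the control ovaries were lower still at -6.88. It missed the threshold with trended and robust moderation (adjusted P-value 0.0696). A_09_P010076 had -6.57, -6.56 and -4.27 for a mean of -5.80 (SE 0.44, 55.7-fold lower, adjusted P-value 3.3e-04). Its control values were -0.79, -1.69 and -1.33, and ectopic minus control was -4.53 (23.1-fold, adjusted P-value 0.0015). Replicate 3 was closer to the reference by more than 2 log2 units than the other ectopic expression arrays, yet still below every control array. Without replicate 1 its mean was -5.42 (adjusted P-value 0.0522).

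The identifiers of the array design also say which cDNA library a clone came from. Clone names beginning with SD come from Schneider cells, a cultured embryonic line, those with GM from ovary, AT from testis, LD and RE from embryos, and GH and RH from adult heads. Of 88 probes for SD clones, 10 (11.4%) were called higher and 1 lower, where 1.88% of all probes were higher. Their mean log2 ratios ran from 1.05 to 4.98, jim was one of them, and 2 of the 10 probes belonged to the same clone. The control ovaries had 4.67 for the probe at 4.98 and 0.80 for the probe at 1.05, and neither difference passed (adjusted P-values 0.123 and 0.373). The other 8 had control means from -1.12 to 2.50, each with an ectopic minus control difference from 1.47 to 2.68. Of the transcript (FBtr) probes 2.38% were called higher. The share of probes above background in Cy5 was 71.6% for SD and 70.1% for FBtr, while the median log2 intensity was 6.79 and 7.14. The shares for LD and RE clones were 4.50% and 3.85%. Of 87 ovary (GM) probes 3 (3.45%) were higher and 2 (2.30%) lower, and of 145 testis (AT) probes 2 (1.38%) were higher and 0 lower. Consensus sequences (TC), of which 40.1% were above background, had 0.736% higher and 0.498% lower. These shares are descriptions of small sets and were not tested.

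**Figure D5:**
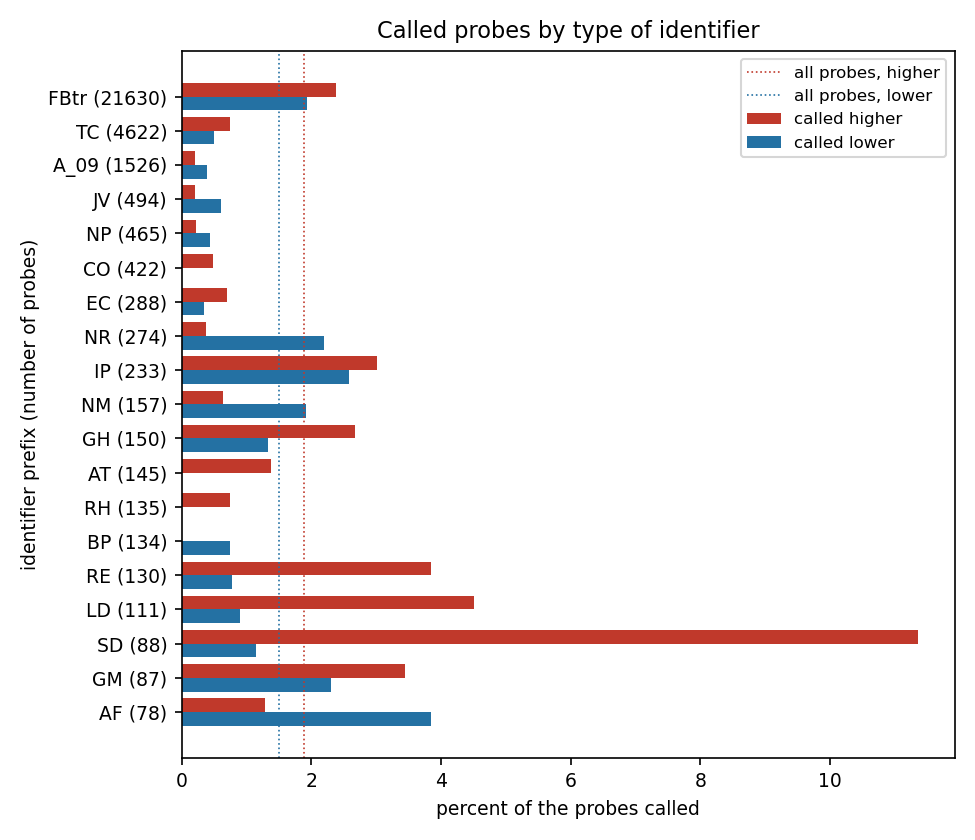
Percent of probes called higher (red) and lower (blue) on the ectopic expression arrays for each identifier prefix with at least 50 probes and at least 1 call, with the number of probes in brackets and dotted lines at the share over all probes. The bar for SD clones reaches 11.4% higher, against 1.88% for all probes.

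Identifiers with a called and a further probe mostly had all probes on the same side of the reference, but seldom all called. Of 189 identifiers with a higher probe and at least 1 further probe, 148 had all probes above the reference and 44 had all of them called. Of 116 with a lower probe and a further one, 95 had all probes below the reference and 31 had all called. The called probe lies on its side by selection, so only the further probes bear on agreement. The same share for identifiers without a called probe is not given. These counts therefore cannot show whether probes agreed more often than unrelated probes would.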

How the data were processed

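Whole-ovary RNA was hybridised to 2-colour Agilent 4x44K Drosophila arrays, designed on build dm3, with Cy5 for samples and Cy3 for the OreR pool. The authors deposited log2 ratios of Cy5 over Cy3, normalized in limma (its version is not given in the sources used here). The deposited scanner files hold median intensity values per spot and channel and, per the file headers, a log10 ratio of Feature Extraction 11.0.1.1. The deposited rows carry no probe names that match, and they were joined to the scanner spots by row order, at which bright spots correlated at 0.991 to 0.996 (by feature number, -0.004 to 0.023).

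Control spots were dropped, and replicate spots were averaged within a probe. The mean of the 3 ectopic expression arrays was tested against 0 with lmFit and eBayes (limma 3.58.1, R 4.3.3) and Benjamini-Hochberg adjustment over 32162 probes. A call needed an adjusted P-value of 0.05 and a 2-fold difference. The test leaves out the spread of the reference pool and dye bias, and an exact sign-flip test of 3 arrays cannot go below 0.25. Ectopic minus control was fitted on 6 arrays, of which each slide held 1 per group. The scripts were tested on simulated data.

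Probes were named through RefSeq accessions (324), clone names or synonyms (158) and transcript identifiers (12). A name was used for every listed gene with a probe of that 1 gene, for up to 15 called genes per direction, and for the 2 most changed unnamed probes per direction. A gene was represented by its probe with the smallest P-value. Members and lists were chosen with earlier results of these data known. The alternatives were other background corrections and normalizations, centring, spot and probe filters, other moderation, limma's treat, single spots, a replicate block, and leaving out each array.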

Additional observations from a re-analysis of the deposited data

Results flagged for a closer look

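The 12 results here have ectopic minus control differences of at least 2-fold that passed the limma test of the difference. Over all probes, 1.3% were higher and 0.833% lower by the same thresholds. Each of the 12 was chosen for its ratio to the reference or its place in a list, so their number is not a result. The other probe of CR31032 also passed (-1.07, adjusted P-value 0.0022), but a gene is represented here by 1 probe. Beside each result stands the range of the difference within the 3 slides, which held 1 array of each group. Higher in the ectopic expression ovaries were A_09_P011396 by 5.99 (within slides 5.75 to 6.25), Madm by 1.95 (1.70 to 2.24) and jim by 1.58 (1.05 to 1.99). Smaller increases were those of Pka-R2 by 1.5 (1.18 to 1.8), Nepl4 by 1.22 (1.1 to 1.41), RpL30 by 1.04 (0.67 to 1.31) and kek1 by 1.01 (0.79 to 1.35). For kek1, Madm and RpL30 the control ovaries were below the wild-type reference and the ectopic expression ovaries above it.

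Lower in the ectopic expression ovaries were A_09_P010076 with -4.53 (within slides -5.78 to -2.94), asRNA:CR43463 with -2.06 (-2.32 to -1.85) and lncRNA:CR34046 with -1.35 (-1.58 to -0.97). The differences were -1.09 for CHKov1 (-1.25 to -0.95) and -1.03 for lncRNA:CR43837 (-1.35 to -0.71). CHKov1 was above the reference in both groups, and less so in the ectopic expression ovaries. For every result flagged here, the transgenes and the balancer cannot be told apart.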

How the results depend on the processing

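The counts against the reference depended on the background correction, the strictness of the test and single arrays. The 605 higher probes became 1032 with a normexp offset of 0, 1017 with the scanner software's log ratio and 235 with limma's treat against 2-fold, which is stricter by construction. The 483 lower probes became 759 with an offset of 0 and 195 with treat. Leaving out 1 ectopic expression array gave 346 to 730 higher and 292 to 591 lower probes. The scanner software's log ratio kept 493 of the 605 and 296 of the 483, and the cause of this difference was not tested. The other 23 values of these counts were within 1.5 times, and higher probes made up 54.2% to 61.1% of calls. Ectopic minus control gave 418 and 267 probes with the replicate number, which is the slide, as a replicate block, against 419 and 268 without it. The correlations of same-numbered arrays' deviations were 0.248, 0.002 and 0.101. Of single genes and probes, 110 values no longer passed the test, 1 newly passed, 838 did neither, and 5 turned sign, none of which had passed it. These were His4:CG33907 (0.13) and RpS29 (-0.055) with the scanner software's log ratio, Mef2 without background correction (-0.015), and 1 gene each when arrays were left out, where RpS29 ran from -0.015 to 0.025 and Mef2 from -0.005 to 0.065. With the scanner software's log ratio jim, Nepl4, asRNA:CR43463 and lncRNA:CR34046 no longer passed among the named 2-fold calls, and kek1, LanA, exu, tor, RpL30, RpS14b, mRpL14, puc, caps, Uhg2 and Dad did not among the smaller differences. With treat, CG14715, CR14033, CG8204, CHKov1, Pka-R2, CR31032, asRNA:CR43767 and asRNA:CR43463 still did. Probes in the lower 2 quartiles of intensity had 0 calls at the offset of 50.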
